A study of Caenorhabditis elegans with 6 samples.

Results

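The genes described here encode transcription factors other than those named as nuclear hormone receptors, together with some proteins that act on such factors. They were taken from a table of 5792 genes as the rows whose gene ontology text held the words "transcription factor activity", a term carried by 126 genes. Leaving out 49 genes named nhr and 5 genes excluded by name (atfs-1, hlh-30, hbl-1, dmd-3 and mab-3) left 72 genes. Expression of these genes was compared between TGQ and WT Caenorhabditis elegans, 3 samples each, as poly(A)-selected RNA of whole worms frozen at L4, the last larval stage. The TGQ animals have the strain label TGQ, and the sources used here give neither its genotype nor its derivation. The WT animals have the strain label SJ4100, known as a strain with a GFP reporter under the hsp-6 promoter, so WT here is not a strain without a transgene. Both groups had been kept at 20 °C on op50 bacteria since hatching. Nothing in the labels says that the replicates were separate cultures. The p-values below therefore rest on the variation among 6 samples, which may be technical.

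Transcription factors bind short DNA sequences beside genes and raise or lower their transcription. They are grouped by the protein fold that touches DNA, such as the homeodomain, the T-box or the basic leucine zipper (bZIP). In a worm larva many of them set the identity of one tissue, and others time the moults, in which the epidermis makes a new cuticle and sheds the old one. The gene ontology term does not select such proteins alone. By protein domain and textbook knowledge, 54 of the 72 genes (75%) belonged to a DNA-binding class. The other 18 encode subunits of the general transcription machinery, cofactors, protein kinases, a protease, kelch-repeat proteins, an ABC transporter and uncharacterised proteins. The gene daf-12 encodes a nuclear receptor for steroid hormones and remained because its name does not start with nhr.

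The table holds genes that the authors had already selected for a difference between these samples, with a largest adjusted p-value of 0.0499 in the authors' deposited table. Its values are an expression signal of unnamed unit, and their sums ran from 282762 to 293887 in TGQ samples and from 327792 to 349508 in WT samples. On log2(value + 1), correlations were 0.989 to 0.993 among TGQ samples, 0.987 to 0.995 among WT samples and 0.87 to 0.919 between the groups. The second principal component held 6.6% of the variance. Its extremes were WT replicate 1, at 15.6, and WT replicate 2, at -12.8, with the other samples at -4.99 to 7.13. Summed markers of oocytes and eggshell (18 of 20 listed genes in the table) ran from 326 to 481 in TGQ samples and from 1375 to 1867 in WT samples. Summed sperm markers (20 of 24) ran from 1235 to 1451 in TGQ and from 3583 to 4194 in WT. Summed neuron markers (5 of 20) ran from 63 to 68 in TGQ and from 34 to 46 in WT, and summed body muscle markers (4 of 16) from 136 to 176 and from 76 to 132. Hypodermis markers (13 of 17) summed to 7468 to 8268 in TGQ and 6105 to 7382 in WT, and intestine markers (8 of 19) to 8737 to 9501 and 10667 to 11240. No marker in the table was at 0 in any sample. In whole worms, fewer cells of a type and less RNA per cell cannot be told apart, and what part tissue composition has in the changes below was not tested.

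Most of these transcription factor genes were higher in TGQ. In the authors' deposited table, 48 of the 72 genes (66.7%) were higher and 24 (33.3%) lower, beside 46.5% higher and 53.5% lower among all 5792 genes. All genes that reached a value of 1 in 3 or more samples were then compared by limma on log2(value + 1), with a call made where the adjusted p lay below 0.05. Of the 68 transcription factor genes tested, 64 were called, 47 higher (69.1%) and 17 lower (25%). Among all 5540 genes tested, 90.2% were called, 45.6% higher and 44.6% lower. A call by itself is therefore close to what any gene of this selected table shows, and the split into higher and lower is given as a description without a test. The median log2 change was 0.56 over the 68 genes and -0.22 over all genes tested. A scaling of the TGQ samples was inferred from the authors' deposited fold changes and is called the authors' scaling below. With it these medians were 0.45 and -0.35, and after quantile normalization 0.58 and -0.10. Relative to all genes, the median of the 68 stood 0.78 higher in the fit used here, 0.79 higher with the authors' scaling and 0.68 higher after quantile normalization.

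**Figure D1:**
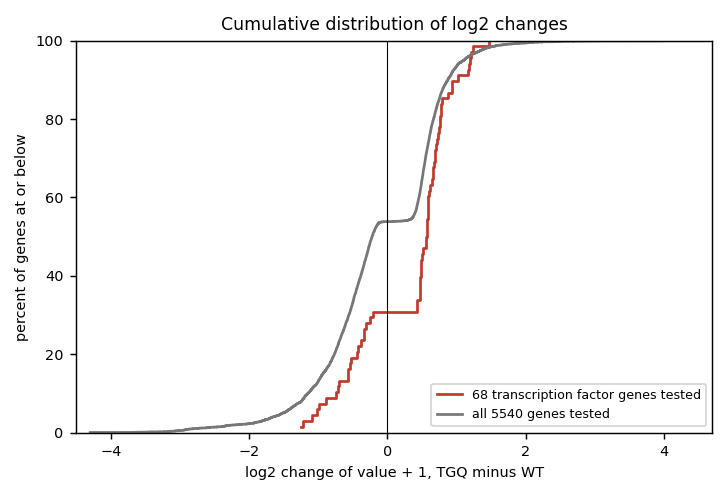
Cumulative distribution of log2 changes of value + 1, TGQ minus WT, for the 68 transcription factor genes tested (red) and all 5540 genes tested (grey), with the percent of genes at or below each change on the vertical axis. The red curve lies to the right of the grey one around 0, with 30.9% of its genes below 0 against 53.8% of all genes.

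Changes were moderate in size. Of the 68 genes, 7 were called with a rise of 2-fold or more on the log2(value + 1) scale, beside 6.57% of all genes tested, and 4 with a fall of that size, beside 13.1%. With a pseudocount of 0.1 these counts were 11 and 5. The count of 4 became 2 without TGQ replicate 2, 2 without WT replicate 1, and 6 with the authors' scaling. The 4 include T27A8.2, which passed the filter through the WT samples alone. By the fold changes of the authors' deposited table, 10 of the 72 genes were higher by 2-fold or more, beside 10.2% of all genes, and 10 were lower by as much, beside 22.1%. TGQ and WT samples did not overlap for 65 of the 68 genes (95.6%), with TGQ above WT for 46 and below WT for 19, beside 91.2% of all genes tested. With the untested genes these were 69 of 72, beside 91.3% of all genes in the table. The 3 genes with overlap were wrm-1, F57C9.4 and taf-1. Within the 50 tested genes of DNA-binding classes, 38 were called higher and 10 lower (median log2 change 0.57). Among the 18 other genes, 9 were called higher and 7 lower (median 0.14). The nuclear receptor genes named nhr with the same ontology term had 44 of 46 called higher and 1 lower, and the difference between these shares was not tested.

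**Figure D2:**
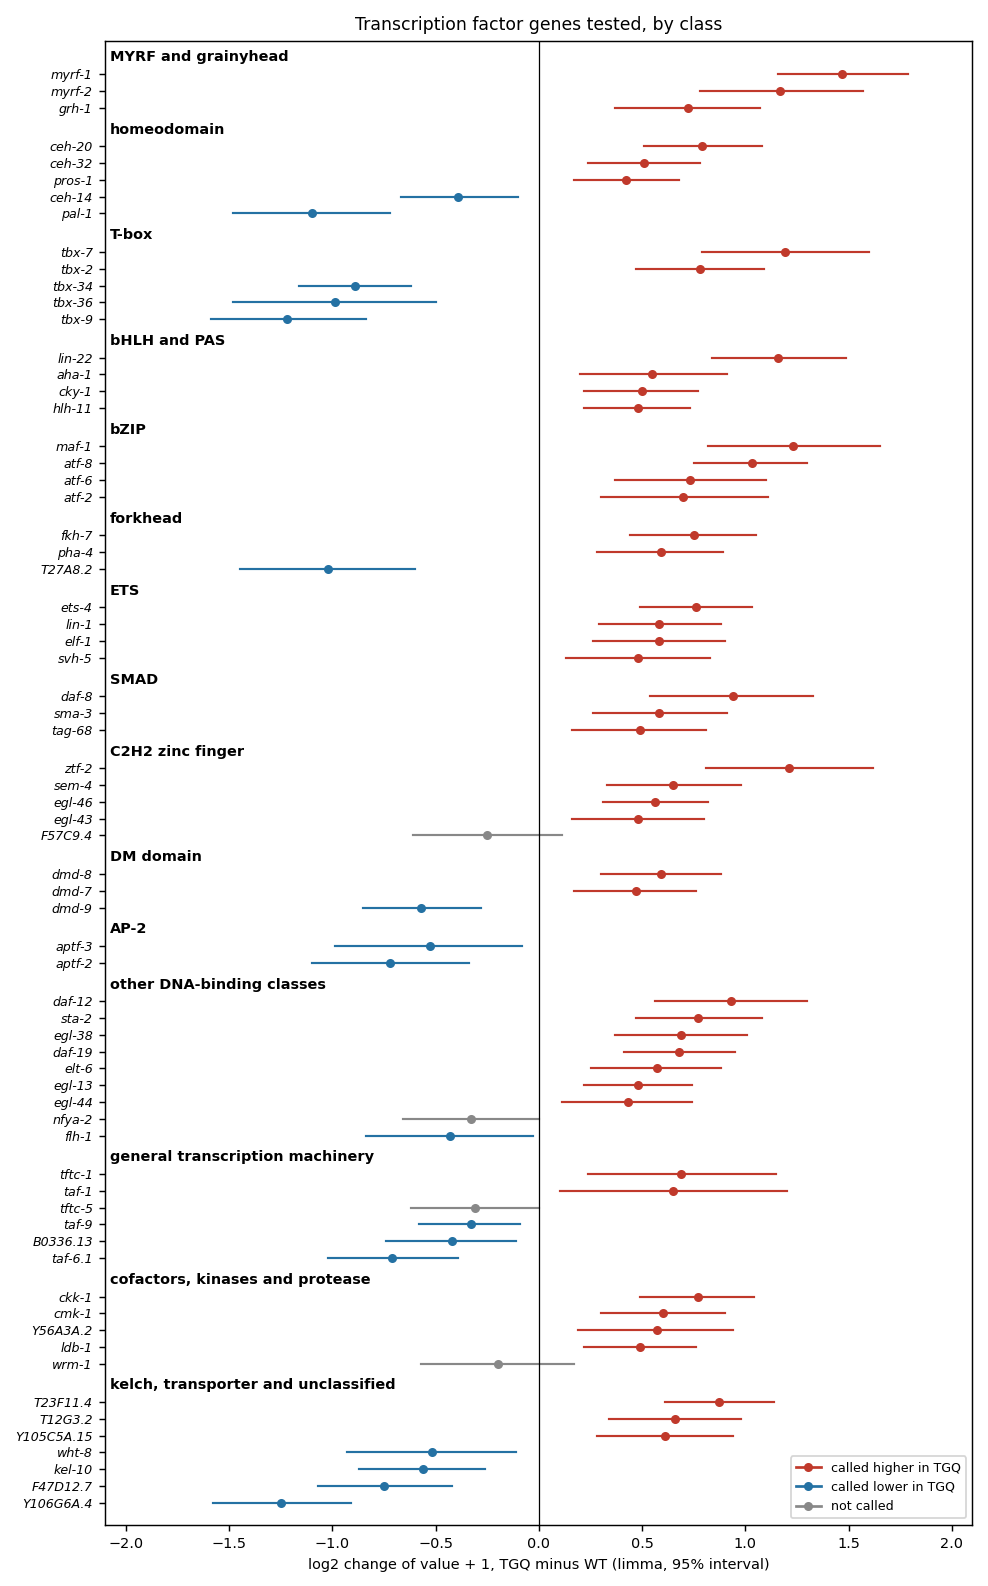
Log2 change of value + 1, TGQ minus WT, of the 68 genes tested, grouped by class. Points are limma estimates and bars 95% intervals, in red for genes called higher in TGQ, blue for called lower and grey for not called; bZIP, ETS, SMAD and bHLH genes lie to the right of 0 without exception, while T-box genes lie on both sides.

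Genes that act in the epidermis and in moulting held the largest rise. The genes myrf-1 (chromosome II, 10496987 to 10502541, in WBcel235, to which all positions below refer) and myrf-2 (chromosome X, 10180940 to 10194377) encode membrane-anchored factors whose DNA-binding part is released by self-cleavage. Worms need myrf-1 to pass through larval development. The value of myrf-1 was 43.7, 49.2 and 43.4 in TGQ samples, against 13.6, 15.04 and 18.9 in WT samples. The lowest TGQ sample lay well above the highest WT sample, and myrf-1 rose 2.78-fold on the value + 1 scale, on which all fold changes below are given (log2 1.47, SE 0.14, adjusted p = 2.95e-05). Its paralog myrf-2 had values of 22.8, 25.1 and 21.6 in TGQ and 12.6, 7.31 and 9.88 in WT, a 2.26-fold rise (log2 1.17, SE 0.18, adjusted p = 0.00037).

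The grainyhead gene grh-1 (chromosome I, 1258201 to 1268155), whose family builds and repairs epidermal barriers in animals, stood at 29.6 ± 1.72 in TGQ and 17.9 ± 3.61 in WT (SD, n = 3 each), a 1.64-fold rise. In lin-22, a Hairy-related factor that keeps seam cells of the epidermis from making neurons, the values were 3.09, 3.93 and 4.1 in TGQ and 1.1, 0.87 and 1.34 in WT. All TGQ samples thus lay above all WT samples, and lin-22 rose 2.24-fold (adjusted p = 0.000134). The GATA factor gene elt-6, which acts in seam cells, rose 1.48-fold, with 3.07 ± 0.476 in TGQ and 1.74 ± 0.259 in WT. The STAT gene sta-2, known for the epidermal response to infection, was at 4.43 ± 0.538 in TGQ and 2.18 ± 0.286 in WT and rose 1.71-fold.

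A list of 28 epidermal, seam and moulting factors, chosen with earlier results of these data known, had 16 genes tested. The listed factors not tested are absent from this table of selected genes. All 16 were called higher. Their log2 changes spanned 0.38 to 1.47, and the median was 0.76, beside -0.22 for all genes tested. Of these, 8 are among the 72 genes described here. The hypodermis markers in the table were called higher in 10 of 13 cases and lower in 2, with a median of 1.14. Both lists hold lin-26. Among all genes tested, 45.6% were called higher and 44.6% lower.

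**Figure D3:**
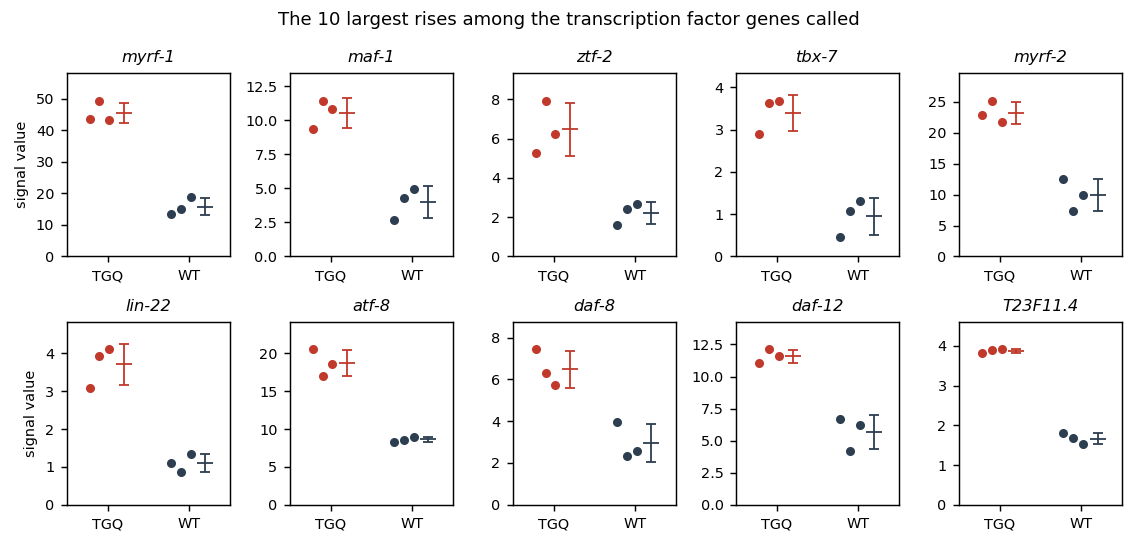
Signal value in each sample for the 10 genes with the largest rises among those called, TGQ (red, left) and WT (dark, right), each panel from 0 on its own scale. Points are samples, and the bar beside them gives mean ± SD over 3 samples; in each of the 10 panels the TGQ samples lie above the WT samples, as in myrf-1 with 45.4 ± 3.28 in TGQ and 15.8 ± 2.73 in WT.

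All 4 bZIP genes among the 72 were called higher, beside 45.6% of all genes tested. A list of 30 bZIP genes, which does not hold maf-1, had only 3 in the table of selected genes. The gene maf-1 (chromosome I, 10382741 to 10385022) encodes a factor of the Maf type and had values of 9.32, 11.39 and 10.8 in TGQ, against 2.69, 4.3 and 4.97 in WT, a 2.35-fold rise (log2 1.23, SE 0.19, adjusted p = 0.000374). In the annotation maf-1 shares 554 of its 1704 exon bases with mgl-2 on the same strand. The values of mgl-2 were 3.98, 3.5 and 3.24 in TGQ and 1.52, 0.71 and 0.93 in WT (log2 change 1.17, SE 0.16), so reads of the shared part could belong to either gene. In atf-8 the values were 20.5, 17.1 and 18.5 in TGQ and 8.31, 8.62 and 9 in WT, a 2.04-fold rise (adjusted p = 0.000111).

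The bZIP gene atf-6 encodes a membrane-bound sensor of misfolded protein in the endoplasmic reticulum. Its values were 8.01, 7.24 and 6.96 in TGQ and 4.94, 3.03 and 4.37 in WT, a 1.66-fold rise (log2 0.73, SE 0.16, adjusted p = 0.00278). The gene Y56A3A.2 encodes a peptidase that the deposited annotation matches to the mammalian site-2 protease MBTPS2, which releases ATF6 from its membrane in mammals. It stood at 34 ± 3.45 in TGQ and 23 ± 5.24 in WT (SD, n = 3 each), a 1.48-fold rise (adjusted p = 0.0111). The remaining bZIP gene, atf-2, rose 1.63-fold, with 12.4 ± 1.52 in TGQ and 7.34 ± 1.83 in WT.

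In a list of 7 SMAD genes, which encode effectors of TGF-beta signalling, 3 were tested. All 3 were called higher, beside 45.6% of all genes tested. The listed SMAD genes not tested are absent from this table of selected genes, so a change of the pathway as a whole was not tested. The SMAD gene daf-8, which acts in the pathway that decides between reproductive growth and the dauer larva, had values of 7.43, 6.29 and 5.71 in TGQ against 3.98, 2.31 and 2.57 in WT, a 1.91-fold rise (log2 0.94, SE 0.18, adjusted p = 0.00124). The body-size SMAD gene sma-3 stood at 9.4 ± 0.652 in TGQ and 5.99 ± 0.985 in WT (SD, n = 3 each) and rose 1.5-fold. The SMAD-related gene tag-68 rose 1.4-fold, with 2.88 ± 0.482 in TGQ and 1.76 ± 0.275 in WT. The nuclear receptor gene daf-12 (chromosome X, 10635908 to 10666875), which acts downstream in the dauer decision and in developmental timing, had values of 11.1, 12.1 and 11.6 in TGQ and 6.66, 4.18 and 6.22 in WT. Its rise was 1.91-fold (adjusted p = 0.000856), and the lowest TGQ sample exceeded the highest WT sample. In a list of 20 effectors of signalling pathways, all 6 tested genes were called higher, 4 of which are described here (median log2 change 0.60).

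All 4 ETS genes among the 72 were called higher, beside 45.6% of all genes tested. In a wider list of 10 ETS genes, which holds lin-1 and ets-4, 3 were tested, and the one that is not among the 72 was called lower (log2 -1.20). The gene lin-1, a repressor downstream of Ras and MAP kinase in vulva formation, had values of 15.1, 13.3 and 12.9 in TGQ and 9.97, 8.33 and 8.31 in WT, a 1.5-fold rise (adjusted p = 0.00298). For ets-4, an ETS gene that affects lifespan in worms, the mean was 20.5 ± 0.605 in TGQ and 11.7 ± 1.23 in WT, a 1.69-fold rise (adjusted p = 0.000505). It shares 72 of 2294 exon bases with ceh-60 on the opposite strand, whose log2 change was -0.21 (adjusted p = 0.186). The gene elf-1 rose 1.49-fold. The svh-5 call, with a 1.39-fold rise, did not hold without TGQ replicate 2 (adjusted p = 0.0755) or WT replicate 2 (0.0546).

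Factors known from neurons and from egg-laying structures were mostly higher. The RFX gene daf-19, the master regulator of ciliated sensory neurons, had values of 5.66, 6.2 and 5.78 in TGQ and 3.14, 3.27 and 3.48 in WT, a 1.6-fold rise (log2 0.68, SE 0.12, adjusted p = 0.000865). The PAX gene egl-38, needed for the egg-laying system, rose 1.61-fold, with 3.64 ± 0.376 in TGQ and 1.89 ± 0.382 in WT (SD, n = 3 each). The SOX gene egl-13, which acts in the uterus, stood at 16.7 ± 0.853 in TGQ and 11.7 ± 0.55 in WT and rose 1.39-fold. The TEAD gene egl-44 and the zinc finger gene egl-46 act together in neuron fate, and both were called higher, 1.34-fold and 1.47-fold. Only the TGQ samples brought egl-46 past the filter. The egl-44 call did not hold with the authors' scaling (adjusted p = 0.0601) or without TGQ replicate 1 (0.0525). The zinc finger gene egl-43, known from the HSN neuron and the anchor cell, rose 1.39-fold, a call lost without WT replicate 3 (adjusted p = 0.0537). The spalt-like gene sem-4 rose 1.57-fold, with 9.28 ± 0.471 in TGQ and 5.58 ± 0.954 in WT.

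Homeodomain genes went both ways. The gene ceh-20 (chromosome III, 6979884 to 6981785), a partner of Hox proteins, had values of 21.1, 20.8 and 22.9 in TGQ and 12.3, 10.5 and 13.3 in WT, a 1.73-fold rise (log2 0.79, SE 0.13, adjusted p = 0.000515). The head gene ceh-32 of the sine oculis class rose 1.43-fold, and pros-1, the prospero homolog known from glia, rose 1.34-fold. Lower in TGQ was pal-1 (chromosome III, 4804688 to 4809576), the caudal homolog, whose maternal mRNA specifies posterior cells of the embryo. Its values were 11.44, 7.78 and 9.6 in TGQ and 26, 19.3 and 19.7 in WT, a log2 change of -1.10 (SE 0.17, adjusted p = 0.00042), with the groups well apart. The LIM homeodomain gene ceh-14, known from a thermosensory neuron, was called lower (log2 -0.39, adjusted p = 0.0161), a call lost without TGQ replicate 3 (adjusted p = 0.0692).

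In the wider list of 103 homeodomain genes, 19 were tested, 14 called higher and 4 lower. In a list of 27 germline, oocyte and early embryo regulators, which also holds RNA-binding proteins, 10 were tested, 7 called lower and 1 higher, with a median log2 change of -1.11. The gene pal-1 is the single one of the 72 on that list. Of the oocyte and eggshell markers, 17 of 18 were called lower and 0 higher (median -1.76). Those markers share oma-1, oma-2 and pos-1 with the germline list, and a link between them and pal-1 was not tested. A list of 58 neuronal fate genes had 9 called higher and 2 lower among 11 tested. Of the 9, egl-46 passed the filter through the TGQ samples alone. The 5 neuron markers in the table were all called higher, with a median of 0.66. Lists of 22 muscle, pharynx and mesoderm factors and of 24 vulva and somatic gonad factors each had 5 genes tested and 5 called higher, with medians of 0.78 and 0.51. Of 12 intestinal factors listed, 5 were tested, with 3 called higher and 1, pal-1, lower, while the intestine markers had 3 called higher and 4 lower. Of 41 factors of stress, immunity and metabolism listed, 6 were tested, with 5 called higher and 0 lower (median 0.64). With few exceptions, the listed factors not tested are absent from this table of selected genes. A change of any of these lists as a whole was therefore not tested. Among all genes tested, 45.6% were called higher and 44.6% lower.

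**Figure D4:**
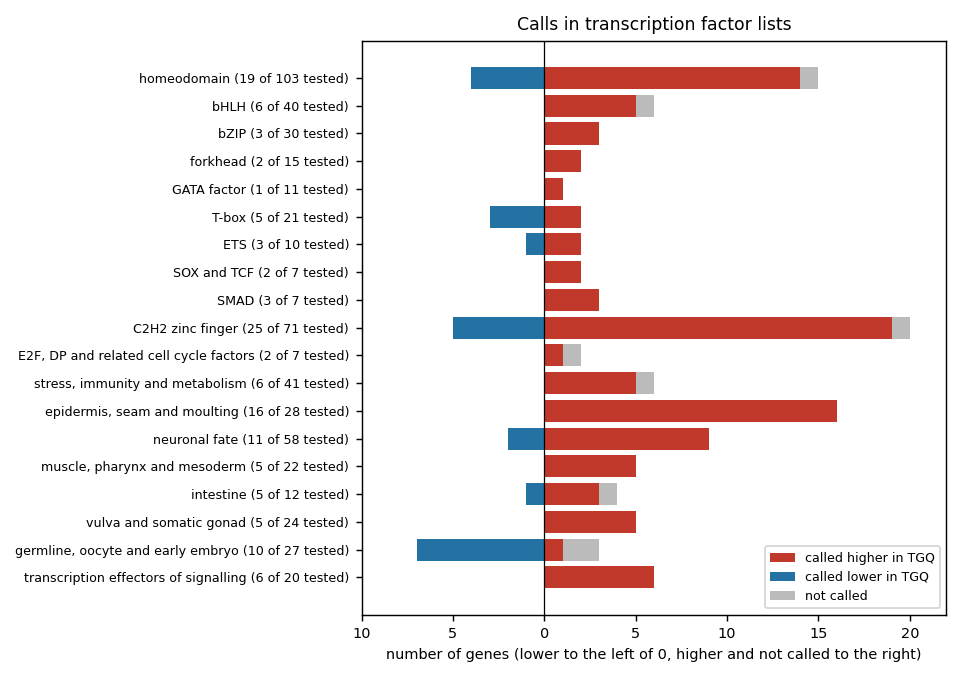
Number of genes called in each list of transcription factors, with genes called lower in TGQ to the left of 0 (blue) and genes called higher (red) or not called (grey) to the right; the count tested and the count listed stand beside each name. The lists overlap and include genes beyond the 72, and the germline list also holds RNA-binding proteins. The epidermal list shows 16 higher and 0 lower, and the germline list 1 higher and 7 lower.

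T-box genes split. The gene tbx-2 (chromosome III, 5130923 to 5136296), which is needed for muscle of the pharynx, had values of 8.59, 8.52 and 7.6 in TGQ and 4.5, 3.68 and 5.01 in WT, a 1.72-fold rise (log2 0.78, SE 0.14, adjusted p = 0.000896). The gene tbx-7 was low, with 2.9, 3.62 and 3.67 in TGQ and 0.47, 1.07 and 1.31 in WT, and rose 2.29-fold (log2 1.19, SE 0.18), or by a log2 change of 1.83 with a pseudocount of 0.1. In contrast tbx-9 (chromosome III, 10340006 to 10341858), which shapes the embryo together with its paralog tbx-8, had values of 1.37, 0.69 and 0.85 in TGQ and 4.12, 3.65 and 2.9 in WT. It was called lower with a log2 change of -1.22 (SE 0.17, adjusted p = 0.00022), or -1.81 with a pseudocount of 0.1. The value of tbx-34 was 7.57, 6.81 and 7.04 in TGQ and 14.2, 14.9 and 13.2 in WT, with no overlap between the groups (log2 -0.89, SE 0.12, adjusted p = 0.000209). The value of tbx-36 was 1.5, 0.42 and 0.7 in TGQ and 3.35, 2.61 and 2.02 in WT (log2 -0.99, SE 0.22, adjusted p = 0.0026), and its log2 change was -1.63 with a pseudocount of 0.1.

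Another pair of T-box genes, tbx-33 and sea-1, did not reach the minimum value and was not tested. For tbx-33 the values were 0.06, 0.12 and 0.14 in TGQ and 0.56, 0.68 and 0.58 in WT. For sea-1, which takes part in counting X chromosomes against autosomes in sex determination, they were 0.2, 0 and 0.1 in TGQ and 1.04, 0.71 and 0.58 in WT. Both are listed as lower in the authors' deposited table, with log2 changes of -2.61 for tbx-33 and -3.11 for sea-1. T-box genes therefore had 2 members called higher and 3 called lower among 5 tested, beside 45.6% and 44.6% of all genes tested. The untested pair was lower by the authors' deposited table.

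**Figure D5:**
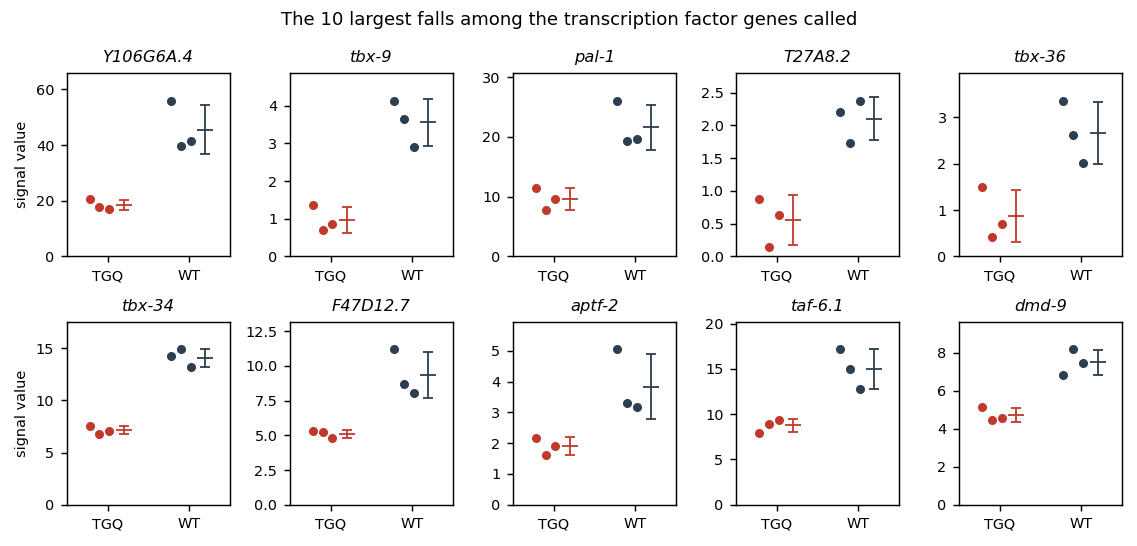
Signal value in each sample for the 10 genes with the largest falls among those called, TGQ (red, left) and WT (dark, right), each panel from 0 on its own scale. Points are samples, and the bar beside them gives mean ± SD over 3 samples; in each of the 10 panels the TGQ samples lie below the WT samples, as in pal-1 with 9.61 ± 1.83 in TGQ and 21.7 ± 3.76 in WT. T27A8.2 passed the filter through the WT samples alone.

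Among forkhead genes, pha-4, the FoxA factor that specifies the pharynx, had values of 6.18, 6.76 and 7.05 in TGQ and 3.69, 3.83 and 4.83 in WT, a 1.5-fold rise (adjusted p = 0.00337). The gene fkh-7 rose 1.68-fold, with 9.08 ± 0.795 in TGQ and 5.03 ± 0.66 in WT (SD, n = 3 each). Lower in TGQ was T27A8.2, an uncharacterised gene with a forkhead domain, at 0.88, 0.14 and 0.64 in TGQ and 2.21, 1.73 and 2.37 in WT (log2 -1.02, SE 0.19, adjusted p = 0.0011). Its log2 change was -1.97 with a pseudocount of 0.1. It passed the filter through the WT samples alone, so a difference was built into its being tested. The gene fkh-3 was too low to be tested, with 0.07, 0 and 0.13 in TGQ and 0.52, 0.48 and 0.46 in WT, and a log2 change of -2.97 in the authors' deposited table. Also untested was the LIM homeodomain gene lim-4, which sets the identity of an olfactory neuron. It had 0.49, 1.03 and 0.59 in TGQ and 0.2, 0.2 and 0.24 in WT, and a log2 change of 1.60 in the authors' deposited table.

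The 4 genes with basic helix-loop-helix or PAS domains among the 72 were called higher, beside 45.6% of all genes tested. In a wider list of 40 such genes, which holds these 4, 6 were tested, 5 called higher and 1 not called (log2 -0.40). Beside lin-22 these were aha-1, the homolog of the mammalian dimer partner ARNT, with 10.7, 9.25 and 10.7 in TGQ and 8.41, 5.65 and 6.13 in WT, a 1.47-fold rise. The gene hlh-11 stood at 38.5 ± 2.04 in TGQ and 27.4 ± 2.31 in WT (SD, n = 3 each) and rose 1.39-fold (adjusted p = 0.00391). The gene cky-1 rose 1.41-fold. It, egl-46 and T27A8.2 passed the filter through the samples of 1 group alone, so that a difference was built into their being tested. With a pseudocount of 0.1 the log2 changes were 0.92 for cky-1 and 1.06 for egl-46, against 0.50 and 0.56 with a pseudocount of 1.

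The zinc finger gene ztf-2 (chromosome I, 7291272 to 7292991) had values of 5.26, 7.9 and 6.23 in TGQ and 1.59, 2.41 and 2.66 in WT, a 2.32-fold rise (log2 1.21, SE 0.18, adjusted p = 0.000346). Genes with the DM domain, the fold of the doublesex family of sexual regulators, differed in direction. The genes dmd-7 and dmd-8 rose 1.38-fold and 1.51-fold, whereas dmd-9 was lower, with 5.14, 4.45 and 4.59 in TGQ and 6.85, 8.17 and 7.44 in WT (log2 -0.57, SE 0.13, adjusted p = 0.00297). Both AP-2 family genes were called lower, beside 44.6% of all genes tested. The values of aptf-2 were 2.18, 1.61 and 1.91 in TGQ and 5.04, 3.3 and 3.17 in WT (log2 -0.72, SE 0.17, adjusted p = 0.00364). The call of aptf-3 (log2 -0.53, adjusted p = 0.0301) rested on WT replicate 1, at 10.9 against 6.15 and 6.91 in the other WT samples, and its log2 change was -0.31 without that sample (adjusted p = 0.0763). It was also lost without TGQ replicate 2 (0.0725) and without TGQ replicate 3 (0.0977).

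The FLYWCH gene flh-1, a repressor of microRNA genes in the embryo, was at 9.79, 9.72 and 8.23 in TGQ and 17.3, 11.2 and 10.8 in WT. It was called lower (log2 -0.43, adjusted p = 0.0428), but the log2 change was -0.23 without WT replicate 1 (adjusted p = 0.103). The call was also lost without TGQ replicate 1 (0.0572), TGQ replicate 2 (0.0687) and TGQ replicate 3 (0.13). The NF-Y subunit gene nfya-2 was not called (log2 -0.33, adjusted p = 0.0526). It passed as lower under the authors' scaling (adjusted p = 0.016), with a replicate block (0.0221) and without WT replicate 3 (0.0492). WT replicate 1 was the highest WT sample for 13 of the 17 genes called lower (76.5%) and for 72.4% of all genes called lower.

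The general transcription machinery did not move as one. The TFIID subunit gene taf-6.1 had values of 7.96, 8.97 and 9.35 in TGQ and 17.15, 14.98 and 12.8 in WT and was called lower (log2 -0.71, SE 0.14, adjusted p = 0.00163). Another TFIID gene, taf-9, was lower at 35.4 ± 0.669 in TGQ and 45 ± 3.93 in WT (SD, n = 3 each; log2 -0.33, adjusted p = 0.0161), a call lost without TGQ replicate 2 (adjusted p = 0.0621). The TFIIA small subunit gene B0336.13 was lower (log2 -0.42, adjusted p = 0.017), a call lost after quantile normalization (0.0997), without TGQ replicate 1 (0.0655) and without WT replicate 2 (0.0546). Called higher was taf-1, which encodes the scaffold of TFIID, at 9.6, 8.43 and 6.75 in TGQ and 7.82, 3.37 and 4.21 in WT. The groups overlapped and the call (log2 0.65, adjusted p = 0.0298) was lost without WT replicate 2 (adjusted p = 0.121). It was also lost with the authors' scaling (0.0587) and without TGQ replicate 1 (0.0812), TGQ replicate 2 (0.0642) or WT replicate 3 (0.0869).

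Subunits of TFIIIC, which brings RNA polymerase III to transfer RNA genes, differed in sign. The gene tftc-1 rose 1.62-fold, with 10.6, 10.2 and 8.62 in TGQ and 8.11, 4.14 and 5.29 in WT (adjusted p = 0.00998). The gene tftc-5 was not called, with 10.1 ± 0.79 in TGQ and 12.8 ± 1.87 in WT (log2 -0.31, adjusted p = 0.0578). It passed as lower under the authors' scaling (adjusted p = 0.0164), with a replicate block (0.0396) and without WT replicate 2 (0.0478).

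Cofactors and upstream enzymes were called higher in 4 of 5 cases, beside 45.6% of all genes tested. The genes ckk-1 and cmk-1 encode the calcium-dependent kinases CaMKK and CaMKI, which activate the factor CREB. The value of ckk-1 was 4.42, 4.8 and 4.93 in TGQ and 2.51, 2.1 and 2.49 in WT, a 1.7-fold rise (log2 0.77, SE 0.12, adjusted p = 0.000565). The value of cmk-1 was 7.13, 7.03 and 5.66 in TGQ and 3.76, 3.94 and 4.32 in WT, a 1.51-fold rise. The gene ldb-1, whose product joins LIM homeodomain proteins, rose 1.4-fold. The beta-catenin gene wrm-1 was not called, with 8.83, 8.6 and 7.48 in TGQ and 12.4, 8.16 and 8.9 in WT (log2 -0.20, adjusted p = 0.251). The zinc finger gene F57C9.4 was not called either (log2 -0.25, adjusted p = 0.155), but passed as lower under the authors' scaling (0.0486) and without WT replicate 2 (0.0359). With tftc-5 these had the smallest changes of the genes tested.

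The largest fall was that of Y106G6A.4 (chromosome I, 9930988 to 9931882), an uncharacterised gene with a BAR domain. Its values were 20.5, 17.7 and 17.2 in TGQ and 55.8, 39.7 and 41.3 in WT, a log2 change of -1.25 (SE 0.15, adjusted p = 0.000116). The kelch genes F47D12.7 and kel-10, annotated to protein ubiquitination, were both lower. In F47D12.7 the values were 5.29, 5.25 and 4.78 in TGQ and 11.2, 8.72 and 8.06 in WT (log2 -0.75, adjusted p = 0.00143), and in kel-10 the log2 change was -0.56 (adjusted p = 0.00402). The ABC transporter gene wht-8 lies 540 bases from tbx-34 on chromosome III, on the other strand and facing away from it. It was called lower (log2 -0.52, adjusted p = 0.0222), a call lost without WT replicate 1 (adjusted p = 0.0615) and without TGQ replicate 3 (0.0877). The uncharacterised genes T23F11.4, T12G3.2 and Y105C5A.15 rose 1.83-fold, 1.58-fold and 1.53-fold, and T23F11.4 was at 3.82, 3.89 and 3.91 in TGQ and 1.8, 1.68 and 1.52 in WT.

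The 72 genes lay on all 6 chromosomes, with 11 on the X chromosome (15.3%), beside 15.5% of all genes of the table. By the direction in the authors' deposited table, 8 of the 48 higher genes (16.7%) and 3 of the 24 lower genes (12.5%) were on X, beside 24.9% of all higher and 7.32% of all lower genes. Chromosome III held 11 of the 24 lower genes (45.8%) and 10 of the 48 higher genes (20.8%), beside 14.1% of all lower and 12.6% of all higher genes, a difference that was not tested. In the annotation 13 of the 72 genes share exon bases with another protein-coding gene, on the opposite strand in all cases but maf-1. The strand setting of the authors' counting is unknown here, so reads of the shared bases could belong to either gene.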

How the data were processed

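One deposited table was used. Its sample columns, per the file headers, hold the authors' expression signal for 3 TGQ and 3 WT samples, with 2 decimals and no unit named; the depth is unknown and no counting interval is given. For each gene the authors deposited group means of that signal, a fold change (the ratio TGQ over WT), its log2, a raw p-value and an adjusted one. The submitters' processing notes list TopHat2, TopHat and RSEM with no version or role. The authors' genome build was not given in the sources used here. Samples were assigned to groups by title.

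The table holds no counts, so the test was limma (version 3.58.1, R 4.3.3) on log2(value + 1). It covered the 5540 genes reaching a value of 1 in 3 or more samples, had no term but group, used eBayes with trend and robust options, and was adjusted by Benjamini-Hochberg over all genes tested. That adjustment takes no account of the authors' earlier selection of these genes on the same samples. Fold changes understate those of low genes. Alternatives were a pseudocount of 0.1, other filters, the authors' scaling (TGQ shifted by -0.131 on the log2 scale), quantile normalization, a replicate block and leaving out each sample. The authors' scaling was inferred, as the sources used here do not give it. Its shift is the median of the deposited log2 fold change minus the log2 ratio of group means. The 3716 genes with both means at least 5 gave that median.

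The 72 genes, their classes and all lists were chosen with earlier results of these data known. Named genes were the 10 largest rises and 10 largest falls called with a mean of at least 2 in the higher group. Added were up to 2 more per direction in each list with a mean of at least 5, and the 3 smallest changes. Of a preset list of regulators to be named whatever their values, only lin-1 and pha-4 are among the 72. Others were named after their values were seen, to account for every class. Coordinates are from Ensembl release 115, in which all 72 identifiers matched. Promoter motifs were not analysed here.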

Additional observations from a re-analysis of the deposited data

How the results depend on the processing

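None of the 68 genes tested changed direction under any of the 12 alternatives, and 54 of the 64 called were called in every alternative in which they were tested; the other 10 lost the call when single samples were left out, 2 of them also under the authors' scaling and 1 under quantile normalization. The 47 genes called higher became 31 and the 17 called lower became 11 where 3 or more samples had to reach a value of 5, which left 46 genes to test. Leaving out single samples gave 45 to 47 genes called higher and 13 to 18 called lower. The median log2 change of 0.56 was 0.67 with a pseudocount of 0.1 and 0.45 with the authors' scaling, and 0.48 to 0.56 when single samples were left out. The scaling inferred from the authors' fold changes moved the median of all genes by -0.12, and quantile normalization moved it by 0.12. With the replicate block, 47 genes were called higher and 19 lower, the gains being nfya-2 and tftc-5. The labels do not pair the samples: deviations of same-numbered samples correlated at 0.247, -0.0115 and 0.16, and 2 of the 3 TGQ samples did not correlate best with their own number. With 3 samples a group and unknown depth, small changes of low genes are the least certain.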
